A study of Mus musculus with 30 samples.

Results

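The arrays compared here came from mouse olfactory epithelium labelled SR-A mutant, 3 taken at 16 h and 3 at 8 h in a series on bilateral olfactory bulbectomy, in which both olfactory bulbs are taken out. They were picked by their titles and are 6 of the 30 arrays of the series. SR-A is a scavenger receptor of macrophages, the product of the gene Msr1, and all mice were 6 weeks old. By their labels both groups share the mutation, the age and the operation, and differ in time alone. The labels write the times as hpO and give no allele, strain, sex or number of mice per array, so that p-values rest on array-to-array spread, part of which may be technical. The other groups drawn on were 3 wild-type-labelled arrays at 16 h and 3 at 8 h. The arrays of both labels at 0 h and 48 h and the wild-type-labelled ones at 2 h entered the fits, where they add to the estimate of spread, and the levels at 0 h and 48 h are given as a description. Each sample was total RNA of the microdissected epithelium hybridised to an Affymetrix array, and the values are MAS5 signals, a linear measure of brightness per probe set.

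The olfactory epithelium lines part of the nasal cavity and holds sensory neurons, supporting sustentacular cells and basal stem cells. The axons of the sensory neurons end in the olfactory bulb, so bulbectomy cuts them off from their target, after which mature neurons die and are replaced from basal cells. Surgery and axon injury also set off fast and short-lived transcription programmes. Immediate early genes need no new protein to be transcribed. Heat shock genes are switched on by heat shock factor and encode chaperones that hold or refold damaged proteins, while cytokines and chemokines call in leukocytes.

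All 30 arrays had been scaled alike, to a 2% trimmed mean signal of 1500.7 to 1500.9, and the Gapdh 3' minus 5' control, a measure of RNA quality, lay between -0.31 and -0.13 in all arrays of the series other than the 3 mutant-labelled arrays at 2 h. Those 3, with 5.59, 0.15 and 1.27, were left out of the fits. The same control for actin was higher in every array at 16 h, with 0.658, 0.927 and 0.769, than at 8 h, with 0.447, 0.636 and 0.652, and its part in the results was not tested. The tissue carried its defining marker: Omp, the olfactory marker protein of mature sensory neurons, had signals of 35962, 40155 and 36190 at 16 h, against 35152, 33422 and 32584 at 8 h. Msr1, the targeted gene, went against the label, although both of its probe sets were too dim to be tested and are only described. On its brighter probe set it read 428, 444 and 374 in the mutant-labelled arrays at 16 h and 468, 396 and 488 in those at 8 h, against 143, 32.6 and 204 in the wild-type-labelled 16 h arrays and 116, 94.8 and 183 in the 8 h ones. Its dimmer probe set was likewise higher in the mutant-labelled arrays, with 250.3, 347.5 and 213.9 at 16 h and 205.1, 265.1 and 285.1 at 8 h, against 82.9, 98 and 90.1 in the wild-type-labelled 16 h arrays and 45.7, 65.8 and 117.3 in the 8 h ones. The labels do not say which stretch of the gene the mutation removes, and a mutant gene that still gives signal and an exchange of the labels cannot be told apart here. An exchange would turn the sign of every difference given below as mutant minus wild type. The groups are called mutant-labelled and wild-type-labelled throughout.

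In the mutant-labelled epithelium 9 of 18 heat shock and chaperone genes and 7 of 21 immediate early genes were lower at 16 h than at 8 h, and none of either list was higher. Single genes of other lists fell with them, among them the cytokines Csf3 and Il6 and the plasminogen activation genes Plaur and Plat. The falls were larger than the rises: Hspa1a, the inducible Hsp70 chaperone, was 12.8-fold lower at 16 h, whereas none of the named genes that rose did so by more than 1.85-fold. Of 6968 probe sets tested 181 changed, which is 2.60%, with 75 higher (1.08%) and 106 lower (1.52%). Counted as genes, with the brightest probe set of each, 147 of 5396 changed (2.72%), 60 upward (1.11%) and 87 downward (1.61%). The median change over all genes was -0.0004. A change was counted where the limma p, Benjamini-Hochberg adjusted over all tested probe sets, was under 0.05, and a change is the log2 difference between the means of the 2 groups ± its standard error, with n = 3 arrays in each group.

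**Figure D1:**
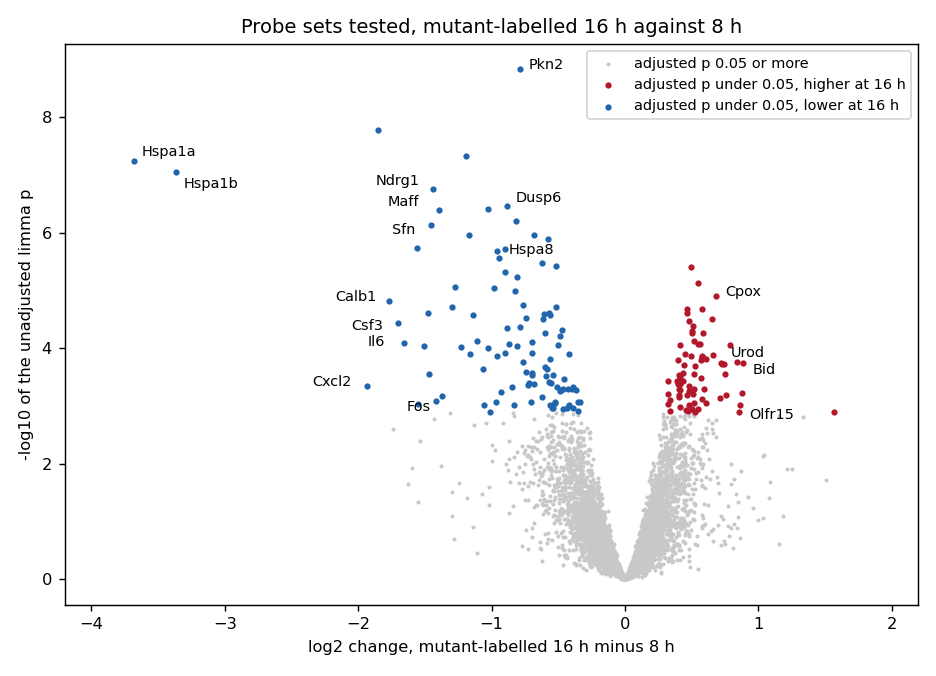
Each point is a probe set, with the log2 change of the mutant-labelled arrays, 16 h minus 8 h, on the x axis and -log10 of the unadjusted limma p on the y axis. Red points are the 75 that were higher at 16 h and blue points the 106 that were lower, and the blue points reach -3.68 on the x axis (Hspa1a).

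The count depended on single arrays. It was 88 without 16 h replicate 2, 66 without 8 h replicate 2 and 84 without 8 h replicate 3, and between 165 and 189 without each of the other 3. Of the 181 probe sets, 52 passed whichever array was left out, 42 that fell and 10 that rose, and all 181 kept their sign in every alternative. In what follows the arrays without which a named gene no longer passed are given beside it, and a gene with no such remark passed in all 6 of those fits. Second or dimmer probe sets given beside a gene carry no such remark. Those of Fkbp4, Socs3 and Aqp4 were not among the 52. Of 24 named genes that did, 8 no longer passed in a fit of only the 6 arrays compared, with an adjusted p of up to 0.0936: Cpox, Tor2a, Pdia3, Hspa5, Cry1, Socs3, Cldn7 and Taf10. Tor2a, Pdia3 and Taf10 also lost the call with the mutant-labelled arrays alone. Statements below that the arrays of the 2 times do not overlap concern genes picked by the same values and add no support.

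Heat shock and chaperone genes were the group with the most members that changed. Of 23 genes in the list 20 were on the array and 18 were tested, and 9 of the 18 fell and none rose, with a median change of -0.65. Over all genes 1.61% fell and 1.11% rose, the background for the counts of this and every later list. The summed signal of the list was 91894 to 103740 at 16 h, against 171350 to 181510 at 8 h. Without 8 h replicate 2 the number that fell was 4, and without 8 h replicate 3 it was 5. In bulk tissue a smaller number of cells that express a gene and less of its RNA per cell cannot be told apart.

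Hspa1a and Hspa1b encode the same inducible Hsp70 protein from neighbouring genes. Hspa1a had signals of 1150, 914 and 1603 at 16 h, against 13445, 14069 and 18733 at 8 h. Hspa1b had signals of 1712, 1408 and 1372 at 16 h, against 13397, 15817 and 17053 at 8 h. Every array at 16 h lay far below every array at 8 h in both genes, and the changes were -3.68 ± 0.46 (limma adjusted p = 0.0001) and -3.36 ± 0.43 (limma adjusted p = 0.000122). The transcripts are nearly identical, so that 1 probe set may read both and the pair may stand for a single measurement. In the wild-type-labelled arrays Hspa1a read 1616, 1233 and 1678 at 16 h, against 10849, 6812 and 2050 at 8 h, with 8 h arrays that were far apart from each other.

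The promoters of Hspa1a, Hspa1b and Dnaja1 are shown because each holds GAANNTTC, the letters searched for here as the heat shock element. The 200 bases before the starts of Hsph1, Dnajb1, Stip1 and Bag3 do not hold it. Each line gives the 200 bases before an annotated start in RefSeq's GRCm38.p6, read 5' to 3' on the gene's strand, with the element GAANNTTC in capitals. Hspa1a lies on the minus strand at chr17:34972157-34972356, Hspa1b on the minus strand at chr17:34959239-34959438, and Dnaja1, a co-chaperone of Hsp70, on the plus strand at chr4:40722268-40722467.
Hspa1a: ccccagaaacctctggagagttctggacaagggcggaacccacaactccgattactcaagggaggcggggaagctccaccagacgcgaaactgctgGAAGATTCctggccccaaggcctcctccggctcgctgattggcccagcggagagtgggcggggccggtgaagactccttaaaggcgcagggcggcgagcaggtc
Hspa1b: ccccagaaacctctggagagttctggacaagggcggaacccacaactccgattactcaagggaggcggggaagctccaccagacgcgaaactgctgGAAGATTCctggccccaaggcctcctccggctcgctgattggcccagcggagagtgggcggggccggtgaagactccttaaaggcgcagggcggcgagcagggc
Dnaja1: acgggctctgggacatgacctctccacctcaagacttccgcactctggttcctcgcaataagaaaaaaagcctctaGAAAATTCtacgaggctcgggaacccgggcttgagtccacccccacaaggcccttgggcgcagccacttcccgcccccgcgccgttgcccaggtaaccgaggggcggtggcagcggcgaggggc
The Hspa1a and Hspa1b stretches differ at 1 of 200 bases, and in both the element begins 104 bases before the start. In Dnaja1 it begins 124 bases before the start shown, the most upstream of 3 annotated ones, and the 200 bases before the other 2 do not hold it.

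The element GAANNTTC reads the same on both strands, and it was searched in windows of 250 bases before to 50 after each start. Of the 18 tested members of the heat shock list 15 had a window, and 10 of these held it, among them 5 of the 7 with a window that fell: Hspa1a, Hspa1b, Hsph1, Dnaja1 and Bag3. The others that held it, Hspb8, Hspd1, Hspe1, Chordc1 and Fkbp4, did not pass on their brightest probe set. Dnajb1 and Stip1 fell without it. Hspa1a and Hspa1b were counted as separate genes despite their nearly identical promoters. In Hsph1 and Bag3 the match lies after the start, 42 and 21 bases from the 2 annotated starts of Hsph1 and 43 bases from that of Bag3. Of all 27025 genes with a window 9.04% held it, and of the 32851 windows 7.86% did. Among tested immediate early genes with a window 1 of 17, Jun, held it, and among clock genes 0 of 13 did. A match says that these letters are present, and no more about the factor.

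Hspa8 and several co-chaperones of Hsp70 fell too, by smaller amounts. Hspa8, the constitutive Hsc70, had signals of 11816, 12127 and 11585 at 16 h, against 21187, 23160 and 23938 at 8 h, a change of -0.94 ± 0.15 (limma adjusted p = 0.00104). Stip1, which links Hsp70 to Hsp90, had signals of 1707, 1363 and 1453 at 16 h, against 2446, 2671 and 3378 at 8 h, a change of -0.90 ± 0.14 (limma adjusted p = 0.00084). In neither gene did the arrays of the 2 times overlap. Hsph1, a nucleotide exchange factor of Hsp70, read 2282, 2184 and 2496 at 16 h, against 6740, 6815 and 6261 at 8 h, a change of -1.51 ± 0.32 (limma adjusted p = 0.0098, and 0.0510 without 8 h replicate 2). Dnajb1, an Hsp70 co-chaperone, fell by 1.06 ± 0.24 on the log2 scale (limma adjusted p = 0.0172, up to 0.0828 without 16 h replicate 3 or without 8 h replicate 2 or 3). Bag3, a co-chaperone in selective autophagy, fell by 0.90 ± 0.19 (limma adjusted p = 0.0121, up to 0.0656 without 16 h replicate 2 or without 8 h replicate 2 or 3), and its other probe set changed by -0.68 (limma adjusted p = 0.0561).

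Hsp90aa1, the stress-inducible Hsp90, fell by 0.74 ± 0.17 (limma adjusted p = 0.0192), and it passed only when 16 h replicate 3 was the array left out, with an adjusted p of up to 0.117 in the other 5 fits. Dnaja1 fell by 0.43 ± 0.11 (limma adjusted p = 0.0443), and it passed only when 16 h replicate 2 was left out, with up to 0.135 in the other 5. The 9 other tested members did not pass on their brightest probe set, although Fkbp4, a co-chaperone of Hsp90, at -0.30 ± 0.14 (limma adjusted p = 0.2298), had a dimmer probe set that fell by 0.60 ± 0.14 (limma adjusted p = 0.0159). The small heat shock protein Cryab came closest, at -1.13 ± 0.33 (limma adjusted p = 0.0641), followed by Hspb8 at -0.41 ± 0.12 (limma adjusted p = 0.0697). The mitochondrial chaperonins Hspd1 and Hspe1 were at -0.53 ± 0.18 and -0.56 ± 0.19 (limma adjusted p = 0.105 and 0.106), and Dnajb4 was at 0.03 ± 0.19.

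**Figure D2:**
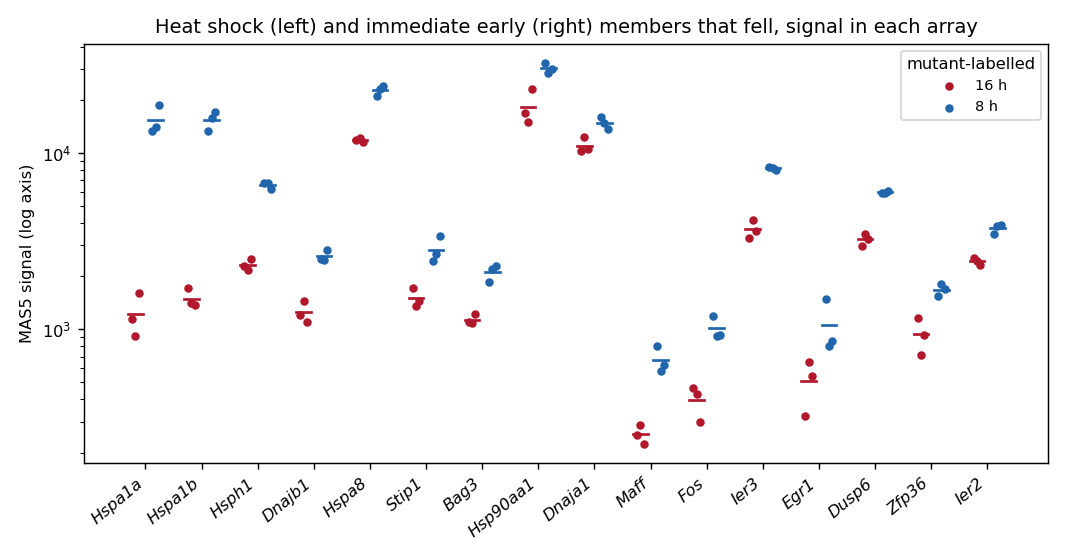
MAS5 signal on a log axis in each mutant-labelled array for the 9 heat shock genes (left) and the 7 immediate early genes (right) that fell, with red points and bars for the arrays and mean at 16 h and blue ones for 8 h. All red points lie below all blue points of the same gene, which adds no support, since the genes were drawn because they fell. The gap is widest for Hspa1a, whose signals reached 1603 at 16 h and started at 13445 at 8 h.

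Chaperones of the endoplasmic reticulum showed a narrower change. Of 16 tested members of the endoplasmic reticulum stress list 2 fell and none rose, with a median change of -0.04. Hspa5, or BiP, the main Hsp70 of that compartment, had signals of 9819, 10703 and 9273 at 16 h, against 13775, 14831 and 13935 at 8 h, a change of -0.52 ± 0.09 (limma adjusted p = 0.00422). Pdia3, a disulfide isomerase that folds glycoproteins, had signals of 3779, 3129 and 4317 at 16 h, against 5030, 6887 and 7275 at 8 h, a change of -0.77 ± 0.14 (limma adjusted p = 0.00413). The arrays of the 2 times did not overlap in either gene.

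Immediate early genes fell in 7 of 21 tested cases and none rose, with a median change of -0.51, where 1.61% of all genes fell. Their summed signal was 53608 to 57443 at 16 h, against 71242 to 72707 at 8 h. The number that fell was 3 without 8 h replicate 2. Those 3 were Maff, Dusp6 and Ier2, which also passed in the other leave-outs.

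Maff, a small Maf transcription factor, had signals of 252, 286 and 223 at 16 h, against 806, 580 and 629 at 8 h, a change of -1.40 ± 0.20 (limma adjusted p = 0.00031). Dusp6, the phosphatase that switches off the kinase ERK, read 2966, 3494 and 3278 at 16 h, against 5939, 5933 and 6077 at 8 h, a change of -0.89 ± 0.12 (limma adjusted p = 0.00031). Ier2, an early response nuclear protein, had signals of 2551, 2434 and 2323 at 16 h, against 3488, 3868 and 3891 at 8 h, a change of -0.62 ± 0.10 (limma adjusted p = 0.00124). The arrays of the 2 times did not overlap in any of these genes, and the 8 h arrays of Dusp6 were nearly equal.

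The other 4 genes of the list that fell each lost the call without at least 1 array. Fos, a subunit of AP-1, had signals of 464, 429 and 298 at 16 h, against 1193, 916 and 933 at 8 h, a change of -1.37 ± 0.35 (limma adjusted p = 0.0331), and it passed only when 16 h replicate 1 was left out, with up to 0.112 in the other 5 fits. Egr1, a zinc finger factor induced by growth factors, had signals of 321, 656 and 544 at 16 h, against 1493, 802 and 864 at 8 h, a change of -1.06 ± 0.28 (limma adjusted p = 0.0411), and it passed only when 16 h replicate 2 was left out, with up to 0.153 in the others. The stress-induced Ier3 fell by 1.16 ± 0.25 (limma adjusted p = 0.0121, and 0.0550 without 8 h replicate 2). Zfp36, or tristetraprolin, which speeds the decay of cytokine messages, fell by 0.87 ± 0.18 (limma adjusted p = 0.00963, up to 0.0744 without 16 h replicate 2 or 8 h replicate 2). Jun was at 0.23 ± 0.19, Junb at -0.55 ± 0.18 and Nr4a1 at -0.84 ± 0.41, and none of the 3 passed. Atf3 did not pass on its brightest probe set, at -1.04 ± 0.30 (limma adjusted p = 0.0617). Its dimmer probe set, which passed, is given under the other observations.

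Over the whole time course, 8 of the 9 heat shock genes that fell had their highest mutant-labelled mean at 8 h and Dnaja1 had it at 0 h, by a small margin. Of the 7 immediate early genes that fell, Fos, Egr1, Ier2 and Zfp36 were highest at 0 h and Dusp6, Maff and Ier3 at 8 h. At 0, 8, 16 and 48 h Hspa1a averaged 4890 ± 575, 15416 ± 2890, 1222 ± 350 and 1302 ± 89.1 in the mutant-labelled arrays (SD, n = 3 each). Fos averaged 3335 ± 354, 1014 ± 155, 397 ± 87.3 and 505 ± 256 at the same times. Ier2 ran as Fos did, with means of 5248, 3749, 2436 and 2280, and Dusp6 peaked at 8 h, with 3947, 5983, 3246 and 3376. These levels at 0 h and 48 h are a description and were not tested here.

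**Figure D3:**
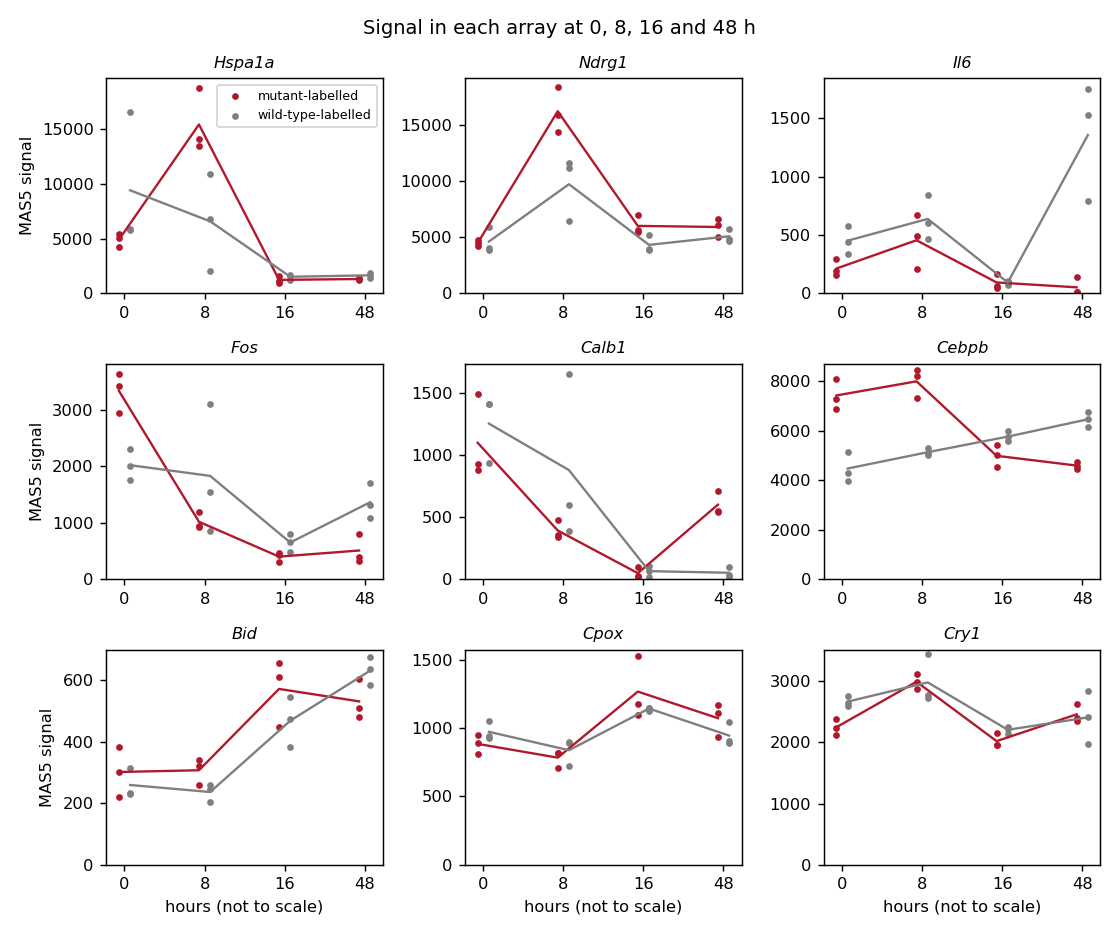
MAS5 signal of 9 genes in each array at 0, 8, 16 and 48 h, evenly spaced on the x axis, with lines through the group means, in red for mutant-labelled and grey for wild-type-labelled arrays. The mutant-labelled means at 8 h were 15416 for Hspa1a and 16232 for Ndrg1, the highest of their 4 times, whereas Fos was highest at 0 h and Calb1 lowest at 16 h.

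Ndrg1, a gene known to be induced by low oxygen and other stress, was among the brightest that fell. It had signals of 5419, 6992 and 5613 at 16 h, against 18426, 15919 and 14350 at 8 h, a change of -1.44 ± 0.19 (limma adjusted p = 0.000203), and its second probe set fell by 1.85 ± 0.21. Slc2a1, the glucose transporter GLUT1, was the member of the glycolysis list that changed, 1 of 15 tested, with signals of 2152, 2410 and 2565 at 16 h, against 5053, 4876 and 5424 at 8 h, a change of -1.11 ± 0.23 (limma adjusted p = 0.00936). In both genes the arrays of the 2 times were well apart, although the rule that named Ndrg1 required groups that do not overlap. The median change of the glycolysis list was -0.05. Of 19 antioxidant genes 1 fell and 1 rose. Hmox1, heme oxygenase 1, which breaks down heme, fell to 9816, 11881 and 10311 at 16 h, against 22439, 27650 and 25017 at 8 h, a change of -1.23 ± 0.26 (limma adjusted p = 0.01, and 0.0635 without 8 h replicate 2). Sod1, the cytosolic superoxide dismutase, rose by 0.34 ± 0.09 (limma adjusted p = 0.0483), a call lost in each of the 6 fits without 1 array, with an adjusted p of up to 0.211.

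Among cytokine genes 2 of 16 tested fell and none rose, with a median of -0.27, where 1.61% of all genes fell. Csf3, the granulocyte colony-stimulating factor, had signals of 535, 858 and 503 at 16 h, against 2538, 1980 and 1572 at 8 h, a change of -1.70 ± 0.33 (limma adjusted p = 0.00572). Il6, interleukin 6, had signals of 48.2, 168 and 62.3 at 16 h, against 667, 487 and 208.5 at 8 h. Signals under 113.7, the 25th percentile of all values pooled, were set to that floor. As 2 of the 16 h arrays lay at or below it, Il6 was at least 3.15-fold lower (limma adjusted p = 0.00963, and 0.0635 without 8 h replicate 2). All arrays at 16 h lay below all arrays at 8 h in both genes, which adds no support, since the genes were picked by the same values.

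Of 8 chemokine genes tested 2 fell and 1 rose. Cxcl2, which attracts neutrophils, had signals of 96.9, 78.1 and 44 at 16 h, all at the floor, against 626, 282 and 468 at 8 h, so that it was at least 3.83-fold lower (limma adjusted p = 0.0261). It passed only when 8 h replicate 2 was left out, and its adjusted p reached 0.100 in the other 5 fits. Ccl2, which attracts monocytes, had signals of 122, 263 and 196 at 16 h, against 1028, 476 and 322 at 8 h, a change of -1.55 ± 0.40 (limma adjusted p = 0.0409), and lost its call without 16 h replicate 1 or 3 or 8 h replicate 1 or 2, with up to 0.144. Ccl9, a CC chemokine, rose to 6495, 6980 and 7454 at 16 h, against 4036, 4426 and 3198 at 8 h, a change of 0.86 ± 0.23 (limma adjusted p = 0.0493) that was lost in each of the 6 fits without 1 array, with up to 0.225. None of the 3 chemokine calls held in all 6 fits without 1 array.

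Socs3 and Cebpb fell, 2 of 14 tested members of the acute phase and epithelial defence list, whose median was -0.11. Socs3, the feedback inhibitor of interleukin 6 type receptors, had signals of 1019, 572 and 553 at 16 h, against 1752, 1508 and 1802 at 8 h, a change of -1.29 ± 0.24 (limma adjusted p = 0.00422), and its second probe set fell by 1.42 ± 0.37. Cebpb, a transcription factor of acute phase genes, had signals of 5422, 4518 and 5030 at 16 h, against 7314, 8474 and 8228 at 8 h, a change of -0.68 ± 0.10 (limma adjusted p = 0.000589). No array at 16 h reached the lowest array at 8 h in either gene.

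Interferon-stimulated genes fell in 2 of 18 tested cases, with a median of -0.23. Gbp2, an interferon-induced GTPase, read 396, 387 and 312 at 16 h, against 1285, 686 and 1157 at 8 h, a change of -1.47 ± 0.34 (limma adjusted p = 0.0197, up to 0.0966 without 16 h replicate 2 or 3 or 8 h replicate 1 or 3). Isg15, a ubiquitin-like protein, fell by 0.54 ± 0.14 (limma adjusted p = 0.0411), and it passed only when 8 h replicate 3 was left out, with up to 0.188 in the others. No member passed in the NF-kappaB, glucocorticoid, MHC class I or MHC class II lists, of 15, 18, 9 and 6 tested genes, whose medians were -0.01, -0.01, 0.09 and -0.35.

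In the extracellular matrix list 2 of 33 tested genes fell and none rose (median -0.11), and both belong to plasminogen activation. Plaur, the urokinase receptor that gathers plasminogen activation at the cell surface, had signals of 221, 405 and 272 at 16 h, against 915, 958 and 707 at 8 h, a change of -1.56 ± 0.24 (limma adjusted p = 0.00084). Plat, the tissue plasminogen activator, had signals of 6184, 4734 and 5574 at 16 h, against 13182, 13481 and 10493 at 8 h, a change of -1.17 ± 0.18 (limma adjusted p = 0.000589). Neither gene is a structural matrix protein, and no collagen, laminin or fibronectin gene on the list passed. At 0, 8, 16 and 48 h Plaur averaged 457, 860, 299 and 123 and Plat 7010, 12386, 5497 and 6231 in the mutant-labelled arrays, so that both were highest at 8 h.

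Epithelial genes were represented by Sfn and Cldn7. Sfn, the 14-3-3 sigma protein of stratified epithelia, had signals of 1468, 897 and 1315 at 16 h, against 2845, 3590 and 3467 at 8 h, a change of -1.45 ± 0.21 (limma adjusted p = 0.000462). Cldn7, a tight junction claudin, had signals of 3081, 2787 and 3512 at 16 h, against 4482, 4551 and 4733 at 8 h, a change of -0.56 ± 0.11 (limma adjusted p = 0.00467). Cldn7 was the sole member that passed of 19 tested in the epithelial injury and cornified envelope list, whose median was -0.50. Pkn2, a protein kinase, had the smallest p of all probe sets: its signals were 708, 600 and 672 at 16 h, against 1161, 1152 and 1104 at 8 h, a change of -0.79 ± 0.08 (limma adjusted p = 1.04e-05).

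Of the circadian clock genes 2 of 16 tested fell and none rose, with a median of -0.18. Cry1, a repressor in the core clock loop, had signals of 1956, 1963 and 2149 at 16 h, against 2986, 3115 and 2878 at 8 h, a change of -0.57 ± 0.11 (limma adjusted p = 0.00464). Bhlhe40, a repressor that competes at the same E-box sites, had signals of 984, 1102 and 1033 at 16 h, against 1656, 1781 and 1689 at 8 h, a change of -0.72 ± 0.17 (limma adjusted p = 0.0246), and passed only when 8 h replicate 1 was left out, with up to 0.107 in the other 5 fits. The arrays did not overlap in either gene. The other core clock genes did not pass: Arntl was at 0.22 ± 0.16, Clock at 0.07 ± 0.09, Per1 at -0.30 ± 0.38, Per2 at -0.46 ± 0.14, Cry2 at 0.25 ± 0.16, Dbp at -0.16 ± 0.31 and Nr1d1 at 0.52 ± 0.30. The clock time at which each group was sampled is not given in the labels, so that clock time and time after the operation cannot be told apart. The E-box CACGTG was in the window of 3 of 13 tested clock genes with one, Per1, Cry1 and Tef, and of 8.09% of all genes.

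**Figure D4:**
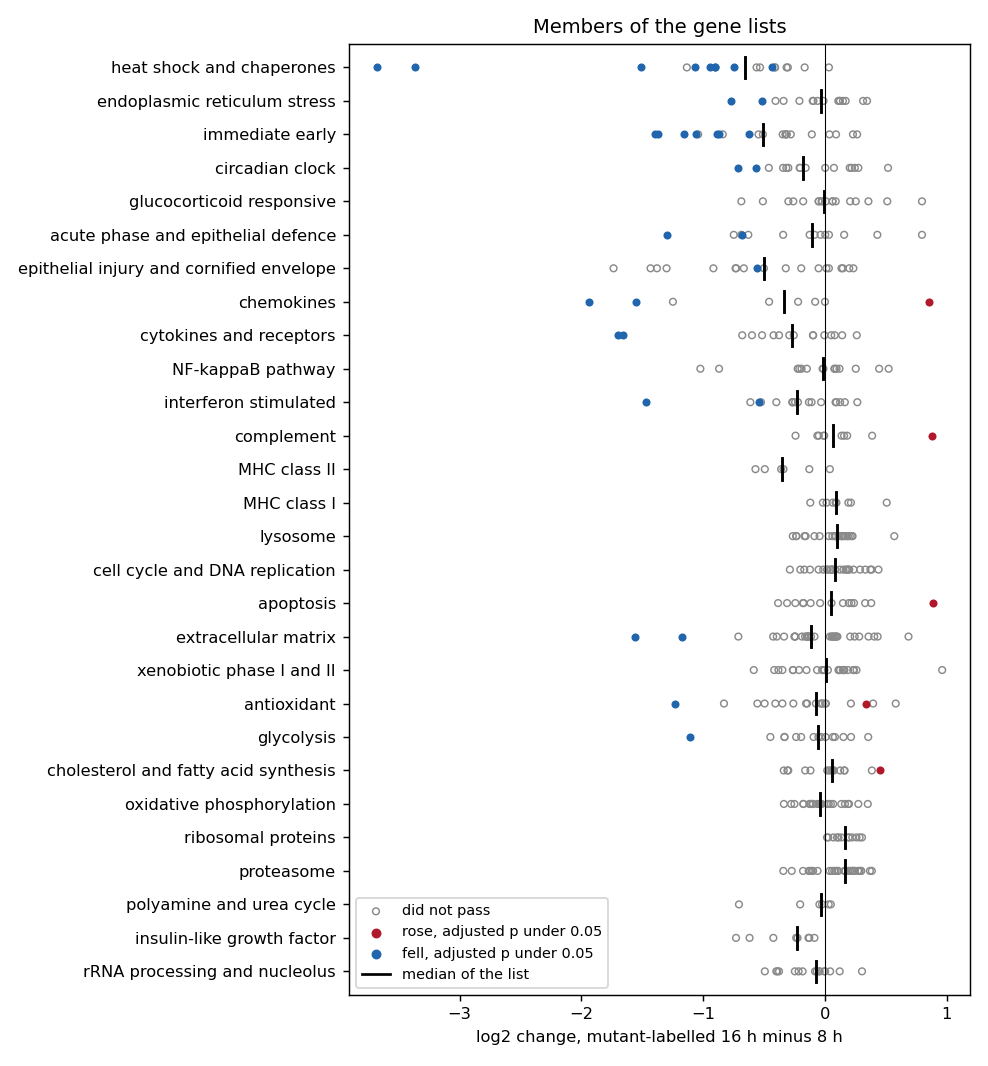
Log2 change of every tested member of the 28 gene lists in the mutant-labelled arrays, 16 h minus 8 h, with filled points for members that passed (blue lower and red higher at 16 h), open circles for those that did not, and a black bar at each list's median. The heat shock list has 9 blue points and a median of -0.65, and the ribosomal protein list has no filled point and all 12 members above 0.

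Several lists of growth and energy genes had no member that passed. Among ribosomal proteins 0 of 12 passed, although all 12 values were above 0 with a median of 0.17, where 2694 of all 5396 genes were above 0. Proteasome subunits gave 0 of 29, with 21 above 0 and a median of 0.16, and oxidative phosphorylation subunits gave 0 of 26, with a median of -0.04. No member passed among 25 cell cycle, 24 lysosome, 24 xenobiotic metabolism, 16 ribosomal RNA processing, 8 insulin-like growth factor and 6 polyamine genes. All 8 insulin-like growth factor genes were below 0, with a median of -0.23.

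Of the 60 genes that rose 54 were on none of the lists and 6 were on one, each in a different list. Cpox, coproporphyrinogen oxidase of heme synthesis, had signals of 1532, 1177 and 1094 at 16 h, against 820, 821 and 711 at 8 h, a change of 0.68 ± 0.12 (limma adjusted p = 0.00308), though its dimmer second probe set changed by -0.30. Urod, the enzyme before it in that pathway, had signals of 3778, 4053 and 3821 at 16 h, against 2660, 2000 and 2446 at 8 h, a change of 0.72 ± 0.16 (limma adjusted p = 0.0143, up to 0.112 without 16 h replicate 2 or 8 h replicate 2). Tor2a, a torsin family ATPase, had signals of 1042, 1347 and 1215 at 16 h, against 760, 708 and 819 at 8 h, a change of 0.65 ± 0.12 (limma adjusted p = 0.00513). In all 3 genes every array at 16 h was above every array at 8 h. The rule that named them required this, so it adds no support.

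The other named rises were each lost when at least 1 array was left out. Bid, which carries a death signal to mitochondria, had signals of 610, 655 and 449 at 16 h, against 259, 340 and 322 at 8 h, a change of 0.89 ± 0.20 (limma adjusted p = 0.0146, up to 0.0879 without 16 h replicate 1 or 2 or 8 h replicate 1), and was 1 of 15 apoptosis genes that passed. Cd59a, which blocks the complement membrane attack complex, rose by 0.88 ± 0.22 (limma adjusted p = 0.0305) and was 1 of 10 complement genes that passed, but it passed only when 16 h replicate 1 was left out, with up to 0.129 in the other 5 fits. The odorant receptor gene Olfr15 rose by 0.87 ± 0.23 (limma adjusted p = 0.0411), which held only without 8 h replicate 1 and reached 0.209 in the others. Il18bp, a decoy for interleukin 18, rose by 0.79 ± 0.16 (limma adjusted p = 0.00963, and 0.0740 without 16 h replicate 2). Pde9a, a cyclic GMP phosphodiesterase, rose by 0.66 ± 0.14 (limma adjusted p = 0.0124, up to 0.0739 without 16 h replicate 3 or 8 h replicate 2). The amino acid transporter Slc6a15 rose by 0.74 ± 0.17 (limma adjusted p = 0.0149, up to 0.0952 without 16 h replicate 2 or 8 h replicate 2). Zfp637, a zinc finger protein, rose by 0.75 ± 0.19 (limma adjusted p = 0.0323), which held only without 16 h replicate 1 and reached 0.172 in the others. The sterol synthesis enzyme Nsdhl was 1 of 16 in its list to pass, at 0.45 ± 0.10 (limma adjusted p = 0.0121, and 0.0724 without 8 h replicate 3), with 0.03 and 0.24 on its other probe sets.

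Few markers of the cell types in the tissue passed. Of 11 tested genes of mature sensory neurons 1 fell and none rose, with a median of 0.15. The summed signal of the list was 126000 to 146680 at 16 h, against 117070 to 134590 at 8 h, ranges that overlap. The gene that fell was Calb1, the calcium-binding calbindin of some neurons, which had signals of 19, 23.3 and 99.5 at 16 h, all at the floor, against 479, 356 and 341 at 8 h, so that it was at least 3.41-fold lower (limma adjusted p = 0.00367). Omp changed by 0.15 ± 0.11 (limma adjusted p = 0.496) and Gap43, of growing axons, by 0.14 ± 0.22 (limma adjusted p = 0.782). Calb1 stood at 601 ± 95.7 (SD, n = 3) in the mutant-labelled arrays at 48 h and at 1100 ± 340.1 at 0 h.

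Of 9 tested genes on the glial list 1 rose, the aquaporin gene Aqp4, with signals of 8863, 10454 and 8201 at 16 h, against 5913, 4818 and 5595 at 8 h. Which cells of the tissue gave its signal was not tested. Its change was 0.75 ± 0.17 (limma adjusted p = 0.0197, up to 0.118 without 16 h replicate 2 or 8 h replicate 2 or 3), and its second probe set rose by 0.84 ± 0.19. All 9 glial genes were above 0, with a median of 0.08, and all 6 basal cell genes were below 0, with a median of -0.40. Over all 5396 genes 2694 were above 0. No gene passed among 16 macrophage, 9 neutrophil, 6 basal cell, 6 sustentacular, 7 ciliated cell, 8 gland, 8 endothelial and 14 fibroblast and bone markers. The macrophage marker Cd68 changed by 0.34 ± 0.16 (limma adjusted p = 0.235). The summed signal of the macrophage list was 34418 to 40180 at 16 h, against 30563 to 41838 at 8 h. That of the neutrophil list was 38728 to 51655 at 16 h, against 31112 to 39774 at 8 h. In both lists the ranges of the 2 times overlap. Whether cell numbers had a part in the changes above was not tested.

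The most like comparison is that of the wild-type-labelled arrays at the same times, which shares no array with the mutant-labelled one. There 157 probe sets changed (2.25%), 91 upward (1.31%) and 66 downward (0.947%). Of the 106 probe sets that fell in the mutant-labelled arrays 82 had a wild-type-labelled value below 0, and of the 75 that rose 51 had one above 0. In 32 the change passed in both labels in the same direction and in 1 in opposite directions. The wild-type-labelled count was 51, 88 and 34 without 16 h replicates 1, 2 and 3, and 274 and 71 without 8 h replicates 1 and 3.

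**Figure D5:**
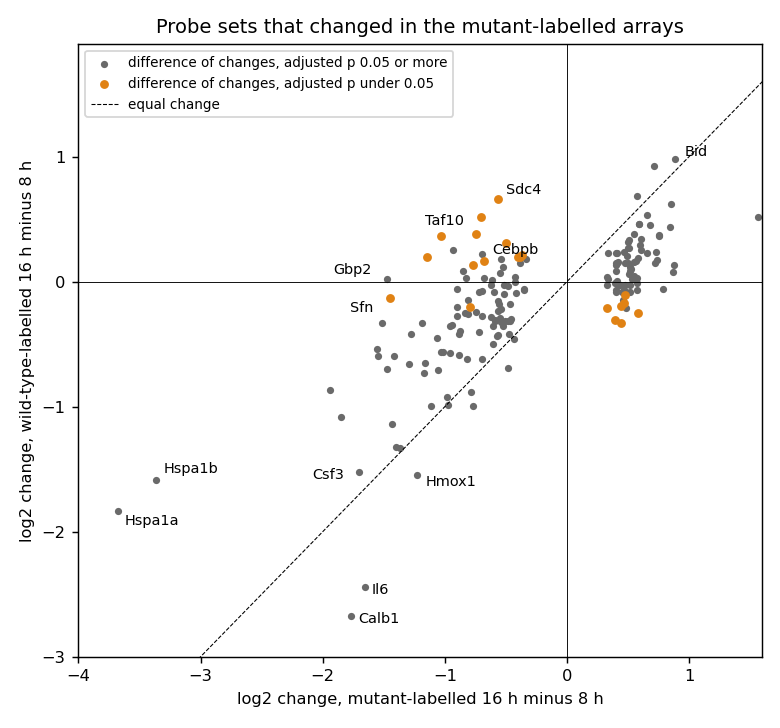
The 181 probe sets that changed in the mutant-labelled arrays, with their log2 change there (16 h minus 8 h) on the x axis and the change of the wild-type-labelled arrays on the y axis; the dashed line marks equal change. Orange points are those whose difference of changes passed, and Hspa1a sits at -3.68 and -1.83. The points of Calb1, Il6 and Cxcl2 understate the change in both labels, since their 16 h arrays lay at the floor in part or in full. That of the dimmer Atf3 probe set understates the mutant-labelled change.

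In the wild-type-labelled arrays 2 of 18 heat shock genes and 3 of 21 immediate early genes fell, where 0.982% of all genes did, with list medians of -0.25 and -0.53. The 8 h arrays were far apart there, with a summed heat shock signal of 95066 to 146520. Replicate 3 read 2450 in Hspa1b, against 13118 and 6904, and 13506 in Hspa8, against 21284 and 21919. In Fos it was instead the highest, with 3104 against 1534 and 844. The part of that array in these list counts was not tested. Hspa1a changed by -1.83 in the wild-type-labelled arrays (limma adjusted p = 0.0383). The difference of the Hspa1a changes, mutant minus wild type, was -1.85 (limma adjusted p = 0.161), and no heat shock, immediate early or clock gene passed the test of that difference. Csf3 fell in both labels, at -1.70 and -1.52, as did Maff, at -1.40 and -1.32, and Ndrg1, at -1.44 and -1.14, each given with the mutant-labelled change first. Calb1 and Il6 fell in both too, but with 16 h arrays at the floor: Calb1 was at least 3.41-fold lower in the mutant-labelled and at least 6.39-fold lower in the wild-type-labelled arrays, and Il6 at least 3.15-fold and at least 5.44-fold, bounds that cannot be set against each other. Bid rose in both, at 0.89 and 0.98.

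The change itself differed between the labels in 48 probe sets (0.689%), 15 with the higher change in the mutant-labelled arrays (0.215%) and 33 with the lower one (0.474%), and 20 of the 48 were among the 181. The count was unstable, with 6 to 96 when single arrays were left out. Cebpb differed in every such fit: the mutant-labelled arrays fell by 0.68 ± 0.10, whereas the wild-type-labelled arrays read 5737, 5571 and 5994 at 16 h, against 5100, 5013 and 5296 at 8 h, a change of 0.17 ± 0.10 and a difference of -0.85 ± 0.14 (limma adjusted p = 0.00947). Sdc4, a heparan sulfate proteoglycan of the cell surface, had signals of 3843, 3602 and 3776 at 16 h, against 6199, 5895 and 4589 at 8 h, in the mutant-labelled arrays. In those labelled wild type it had signals of 6164, 5972 and 5916 at 16 h, against 3676, 3722 and 4044 at 8 h. Its changes were -0.56 ± 0.12 (limma adjusted p = 0.0134, up to 0.0861 without mutant-labelled 16 h replicate 2 or 8 h replicate 1 or 2) and 0.66 ± 0.12 (limma adjusted p = 0.00813), and the difference was -1.22 ± 0.17 (limma adjusted p = 0.00354), which passed in all 12 fits without 1 array but not with all 30 arrays (limma adjusted p = 0.0979). Sdc4 thus moved in opposite directions in the 2 labels.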

How the data were processed

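The values were linear MAS5 signal intensities, 1 per probe set and array, as deposited by the authors, and MAS5 is named in the submitters' processing notes without a version. Scanner files were left aside. On this platform, the Affymetrix MG-U74Av2 array, probe sets were named through the platform's gene table and RefSeq GRCm38.p6.

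Of 12488 probe sets 66 were controls. Intensities under the 25th percentile of all values pooled, 113.7, were set to that floor and log2 was taken. Tests took in probe sets where 3 or more of the 30 arrays exceeded the pooled median of 572, which left 6968 tested and 5454 not tested. A single gene was paired with 6320 of these, which gave 5396 genes, each read on its brightest probe set. Probe sets whose names end in _f_at or _s_at, among them those of Socs3, Cldn7, Cry1, Bag3, Zfp36 and Ndrg1, may share probes with other transcripts. The number of arrays, 3 per group, limits the precision.

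One mean per genotype and time was fitted in limma 3.58.1 under R 4.3.3 to the 27 arrays other than the mutant-labelled 2 h ones, with moderated variances. Contrasts were mutant-labelled 16 h minus 8 h, wild-type-labelled 16 h minus 8 h, and their difference. Two-sided p-values were adjusted by the Benjamini-Hochberg method over all 6968 probe sets, and 0.05 was the threshold. Gene lists were described by counts and medians, with no set test. A change is a lower bound, written "at least", where the floor was reached by arrays of the lower group alone. The fit was tested on simulated data.

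The members, gene lists, named-gene rule and omission of the 2 h arrays were chosen with earlier results of these data known. The rule named the 12 largest rises and 12 largest falls that passed with groups that do not overlap, up to 4 members of each list, the 10 smallest p-values of the difference, every measured heat shock, immediate early and clock gene, and Msr1, Omp, Gap43 and Cd68. Alternatives were all 30 arrays, fits of fewer groups, each array left out in turn, a replicate block, quantile normalization, no filter, robust moderation with a trend in the variance, and a pseudocount of 16 instead of flooring. Figures and tables used Python 3.11.15 with pandas 2.3.3 and matplotlib 3.10.9.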

Additional observations from a re-analysis of the deposited data

Results flagged for a closer look

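In 12 named genes the 16 h minus 8 h change differed between the labels by the limma contrast of changes, given below as the mutant-labelled change minus the wild-type-labelled change. The 48 probe sets that passed are 0.689% of those tested, and their number ran from 6 to 96 when single arrays were left out, so these genes were called in a count that few arrays decide.

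Sdc4, at -1.22 (adjusted p = 0.00354), and Cebpb, at -0.85 (adjusted p = 0.00947), passed in all 12 fits without 1 array, as did Gnb1 and Atxn7l3b. With all 30 arrays Sdc4 (adjusted p = 0.0979) and Atxn7l3b (adjusted p = 0.302) did not pass, whereas Cebpb and Gnb1 passed in all 7 other alternatives too. Gnb1, a G protein beta subunit, differed by -2.08 ± 0.35 (adjusted p = 0.00947): its signals were 6882, 6197 and 6852 at 16 h, against 14520, 9909 and 8397 at 8 h, in the mutant-labelled arrays. In those labelled wild type they were 10954, 8308 and 10584 at 16 h, against 3147, 4908 and 3422 at 8 h. The 2 other Gnb1 probe sets differed by -0.54 and -0.62 and did not pass. Atxn7l3b, a relative of a chromatin-modifying complex subunit, differed by 0.96 ± 0.16 (adjusted p = 0.00947) and its brighter probe set by 0.08 (adjusted p = 0.798).

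Taf10, a subunit of the general transcription factor TFIID, differed by -1.13 ± 0.20 (adjusted p = 0.0149), with signals of 1853, 1786 and 2231 at 16 h, against 3468, 2824 and 3547 at 8 h, in the mutant-labelled arrays. In those labelled wild type the signals were 2958, 2871 and 2991 at 16 h, against 2279, 2429 and 2073 at 8 h. Its adjusted p reached 0.0556 without mutant-labelled 16 h replicate 2 or 8 h replicate 3. Nab1, a co-repressor of Egr factors, differed by -0.81 ± 0.15 (adjusted p = 0.0165, up to 0.0691 without mutant-labelled 16 h replicate 2 or 8 h replicate 2).

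The remaining genes were Pkn2 at -0.59 ± 0.11, the polarity kinase Mark2 at -0.91 ± 0.17 (-0.31 on its brighter probe set, which did not pass), Cnot2 of the deadenylase complex at 0.69 ± 0.13 and the autophagosome protein Map1lc3b at 0.77 ± 0.15 (0.52 on its brighter probe set, adjusted p = 0.0741), all with adjusted p = 0.0191. These 4 each lost the call in 4 or 5 of the 12 fits without 1 array, with adjusted p of up to 0.0800, and mutant-labelled 16 h replicate 2 and wild-type-labelled 16 h replicate 1 were among the arrays for each of them. Pdia3 differed by -0.90 ± 0.20 (adjusted p = 0.0389) and Sfn by -1.32 ± 0.30 (adjusted p = 0.0419), and each lost the call in 9 of the 12 fits without 1 array, with adjusted p of up to 0.134 and 0.119, and in 4 of the 7 other alternatives.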

How the results depend on the processing

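The mutant-labelled count of 181 was 51 (6 higher, 45 lower, 42 of them shared) in a fit of only the 6 arrays compared and 95 (28 higher, 67 lower) with only the mutant-labelled arrays at 4 times, and between 132 and 207 under the other alternatives. It ran from 66 to 189 with 1 array left out. The wild-type-labelled count of 157 was 86 with all 30 arrays, 80 with no filter and 5 with only the 6 arrays compared, and ran from 34 to 274 with 1 array left out. The count of 48 for the difference was 6 with all 30 arrays, 12 with only the 4 groups compared and ran from 6 to 96 with 1 array left out. The causes were not tested. The reduced fits also held fewer arrays. Replicate numbers did not pair the samples: deviations of same-numbered arrays correlated at -0.11, -0.03 and -0.00 in the mutant-labelled and 0.16, -0.02 and -0.06 in the wild-type-labelled arrays. With the replicate number as a block the counts were 171, 124 and 27. Of 1614 values for single genes under an alternative 1359 kept their direction and side of the threshold. Those that changed sign belonged to genes that never passed, with changes over the leave-outs of -0.063 to 0.038 for Nr1d2, -0.0066 to 0.52 for Tef, -0.088 to 0.13 for Jund, -0.069 to 0.51 for Ccn1, -0.57 to 0.082 for Ccn2, -0.038 to 0.17 for Btg2, -0.26 to 0.035 for Gadd45b and -0.19 to 0.19 for Dnajb4. Signals near the floor limit Cxcl2, Il6, Calb1 and the dimmer probe set of Atf3 to lower bounds, and genes below the filter were not tested.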

Other observations

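The probe sets below were chosen after their values were seen, from the 52 that passed whichever array was left out. Their genes lie outside the naming rule, apart from Atf3, which is on the immediate early list. Among those that fell were both probe sets of Clic4, an intracellular chloride channel family protein, at -1.19 ± 0.15 and -1.27 ± 0.22, and Ywhag, the 14-3-3 gamma protein, at -1.14 ± 0.22. Atf3, a stress-induced transcription factor, fell by at least 1.47 on the log2 scale on its dimmer probe set (limma adjusted p = 0.00464). That probe set read 65.8, 200.2 and 58 at 16 h, in part below the floor, against 404.9, 334.6 and 408.8 at 8 h. On its brighter probe set Atf3 was at -1.04 ± 0.30 (limma adjusted p = 0.0617). Rcan1, an inhibitor of the phosphatase calcineurin, changed by -0.79 ± 0.15 in the mutant-labelled and -0.89 in the wild-type-labelled arrays, and Noct, nocturnin, by -0.82 ± 0.12 and -0.62. Both passed in both labels. Ero1a, the oxidase that serves disulfide formation, fell by 0.70 ± 0.14, and P4ha1, a collagen prolyl hydroxylase subunit, by 0.60 ± 0.12.

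The rises that passed in every such fit were small. Anapc4, a subunit of the anaphase-promoting complex, rose by 0.58 ± 0.11, the RNA polymerase subunit Polr2e by 0.55 ± 0.09, the medium-chain fatty acid dehydrogenase Acadm by 0.51 ± 0.10 and the mitochondrial ribosomal protein Mrps17 by 0.50 ± 0.08. The splicing factor Plrg1 and the mitochondrial protease Parl rose by 0.46 ± 0.09 each. Parl changed by -0.17 in the wild-type-labelled arrays, and the difference of its changes passed (limma adjusted p = 0.0191).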
